A study of Homo sapiens and Mus musculus with 19 samples.

Results

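The genes described here encode ICAM1 and the other ligands on tumour cells that leukocytes bind for adhesion, named ICAM1, ICAM2, ICAM3, ICAM4, VCAM1, CD44, CD58, F11R and ALCAM. These 9 genes were chosen by name and not by any measured value, although earlier results of these data were known. Each was read from the brightest probe set annotated to that gene alone. Of these, 8 were among the 19775 human genes with a probe set of their own, and 7 among the 18194 mouse genes. No human probe set was annotated to F11R and no mouse probe set to Icam3 or Cd58, so these were not analysed here. The series holds 19 single-colour Affymetrix arrays of lung cancer cells transduced with a retrovirus and sorted on its green fluorescent marker. IKKb is the vector with activated IKK beta, a kinase that frees NF-kB from its inhibitor, in which S177 and S181 are changed to E. IkB_SR carries the super-repressor form of that inhibitor, IkB alpha, in which S32 and S36 are changed to A. MiG is the empty vector. The 5 human lines, which are PC9, HCC827, H358, H23 and A549, each had 1 array with IKKb, 1 with IkB_SR and 1 with MiG, and mouse Lewis lung carcinoma cells, labelled LLC-kB OVA and called LLC here, had 2 arrays with IKKb and 2 with MiG. What kB OVA means is not given, although it stands in the names of all the mouse samples. The labels also do not say whether the LLC replicates were separate cultures, so p-values in LLC measure the spread between these samples.

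ICAM1 is a surface glycoprotein of the immunoglobulin superfamily that binds the leukocyte integrins LFA-1 and Mac-1, and its transcription in epithelial and endothelial cells is a textbook response to NF-kB. ICAM2, ICAM3 and ICAM4 are related ligands of leukocyte integrins, known mainly from endothelium, leukocytes and red cells. VCAM1 binds the integrin VLA-4 and is best known from activated endothelium. CD44 is a receptor for hyaluronan with many splice forms, CD58 is the ligand of CD2 on T and NK cells, ALCAM binds CD6 on T cells, and F11R is a tight junction protein that also binds LFA-1.

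The 250 bases before the annotated start of ICAM1 and of VCAM1 are shown because these were the members whose window held a searched NF-kB motif. The sequences are RefSeq's on GRCh38.p14, 5′ to 3′ on the strand of the gene, with the motifs in capitals. The ICAM1 window lies at chr19:10270870-10271119 (plus strand) and the VCAM1 window at chr1:100719492-100719741 (plus strand).
ICAM1: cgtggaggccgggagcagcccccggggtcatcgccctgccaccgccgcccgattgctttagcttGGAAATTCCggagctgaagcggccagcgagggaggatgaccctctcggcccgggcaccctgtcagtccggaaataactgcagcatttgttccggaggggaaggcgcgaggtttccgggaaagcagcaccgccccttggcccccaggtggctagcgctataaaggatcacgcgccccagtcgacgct
VCAM1: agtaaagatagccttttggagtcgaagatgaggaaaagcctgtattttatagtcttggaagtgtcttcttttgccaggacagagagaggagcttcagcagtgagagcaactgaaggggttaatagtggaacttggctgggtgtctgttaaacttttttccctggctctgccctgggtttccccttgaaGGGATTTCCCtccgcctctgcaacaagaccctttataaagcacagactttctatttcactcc
The ICAM1 window held GGAAATTCC from -186 to -178, counted back from the start. The VCAM1 window held GGGATTTCCC, a match to the kB consensus, from -62 to -53. Of 35114 promoter windows of the same length, 1828 (5.21%) held the kB consensus on either strand, 145 (0.413%) held GGAAATTCC and 1893 (5.39%) held at least 1 of them. Windows were found for 7 of the 9 members, and those of ICAM3, ICAM4, CD44, CD58 and ALCAM held none of these letters. A match is a description of the letters and was not tested for binding.

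The values are MAS5 signals, which had a trimmed mean of 500 on each array and medians of 51.3 to 76.5 on the human and 55.0 to 64.4 on the mouse arrays. A signal below the 40th percentile of its own array, which was 28.7 to 45.0 on the human arrays, is called dim. The number of arrays limits the precision. NFKBIA, the gene of IkB alpha, was 1.60-fold to 7.08-fold higher with IkB_SR than with MiG in 4 human lines. It stood at 0.782 of MiG on the array labelled H23 IkB_SR, against its label. NFKBIA was also 1.07-fold to 3.91-fold higher with IKKb than with MiG, so it does not read the IkB_SR vector alone. On the array labelled H23 IkB_SR, the NF-kB activity controls TNFAIP3, RELB, TRAF1, NFKB2 and NFKBIE were all below H23 MiG. TNFAIP3 read 927 there against 2840, and RELB 259 against 548. The brightest probe set of IKBKB, the gene of IKK beta, stood at 0.794 to 1.03 of MiG with IKKb. A dimmer IKBKB probe set exceeded MiG on each of the 5 IKKb arrays, at signals of 79.9 to 291 with IKKb and 26.9 to 204 with MiG, the MiG values of HCC827 and PC9 being dim, while the remaining one was higher in 2 lines. The H358 IKKb array stood apart in its Dap spike-in signal, 4376 against 1103 on the IkB_SR and 1128 on the MiG array of that line, and in the 3' to 5' ratio of its actin signal, 1.74 against 1.38 and 1.41. The epithelial markers EPCAM, KRT8 and KRT18 were above the 40th percentile on all 15 human arrays, and the leukocyte marker PTPRC on 1 of 15. Of the fibroblast and endothelial markers, COL1A1 and PECAM1 were above it on all 15 arrays, CDH5 on 7 and COL3A1 on 4.

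ICAM1 was the member that followed the vectors. Its signal was higher with IKKb than with IkB_SR in all 5 human lines, and the 2 vectors lay on opposite sides of MiG in 4 of them. In HCC827 the ICAM1 signal was 2747 with IKKb, 194 with IkB_SR and 461 with MiG. In H358 it was 1649 with IKKb, 520.1 with IkB_SR and 453 with MiG. In PC9 it was 1666 with IKKb, 363 with IkB_SR and 758 with MiG. IkB_SR thus lay below MiG in HCC827 and PC9 and just above it in H358. In H23 the signal was 2304 with IKKb, 515 on the array labelled IkB_SR and 1295 with MiG. In A549 it was 69.0 with IKKb, 11.1 with IkB_SR and 55.5 with MiG, the IkB_SR value being dim. Within a line the IKKb array was always the highest of the 3, while across lines the vectors overlapped, because A549 lay far below the other lines with every vector.

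**Figure D1:**
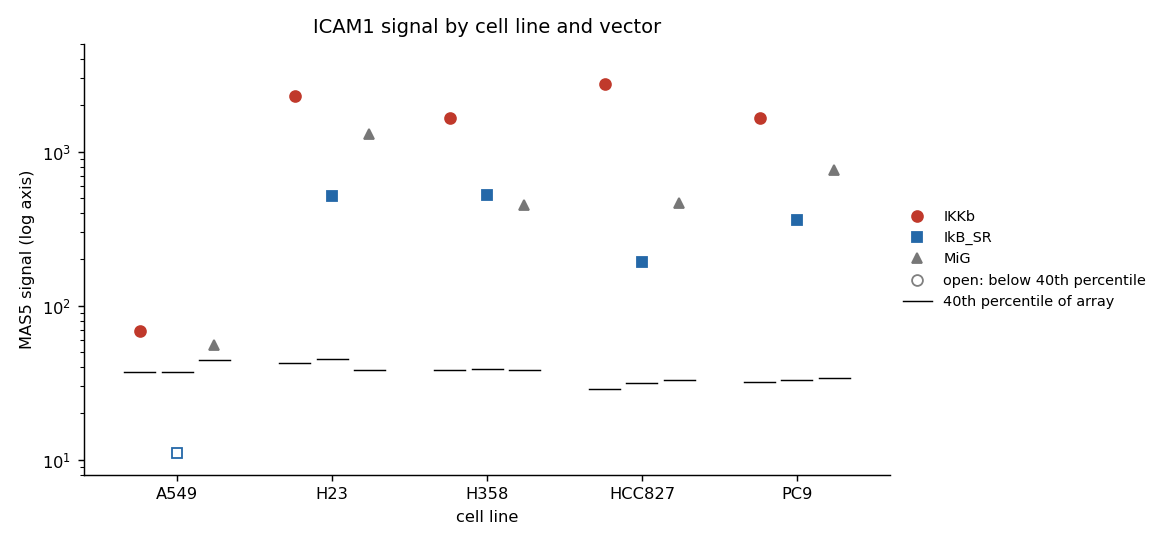
ICAM1 signal (log axis) for each human line, with 1 point per array for IKKb, IkB_SR and MiG, the 40th percentile of each array as a black line and dim values as open points. IKKb is the highest point in every line, at 69.0 in A549 and 1649 to 2747 in the other 4.

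Between IKKb and IkB_SR, ICAM1 rose 4.78-fold, a log2 fold change of 2.26 ± 0.29 (SE) with a 95% interval from 1.65 to 2.87 (limma, Benjamini-Hochberg adjusted p = 0.00209, higher in 5 of 5 lines). It ranked 11 by p among the 15185 human genes tested, of which 140 (0.922%) passed the adjusted p of 0.05 in either direction and 91 (0.599%) were higher with IKKb. At an unadjusted p below 0.05 lay 2159 of all genes (14.2%). In bulk samples, fewer cells of a kind and less RNA per cell cannot be told apart. By signal the ratio of IKKb to IkB_SR was 14.2 in HCC827, 4.59 in PC9, 4.47 in H23 and 3.17 in H358, and at least 1.85 in A549, where the 40th percentile stands for the dim IkB_SR value. On the log2 scale HCC827 lay at 3.72 and the other 4 lines between 1.63 and 2.15. The log2 fold change was 1.89 without HCC827 (adjusted p = 0.0123), 2.27 without the H358 IKKb array (adjusted p = 0.00472) and 2.29 without H23 (adjusted p = 0.0163), so the call did not rest on those arrays. In a model without the cell line term the value was the same and the adjusted p was 0.99996.

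Against the empty vector, ICAM1 did not pass with either of the other vectors. ICAM1 lay at log2 1.31 ± 0.29 between IKKb and MiG (2.48-fold, 95% interval 0.70 to 1.92, limma adjusted p = 0.621, unadjusted p = 0.000409, higher in 5 of 5 lines). By signal the ratio of IKKb to MiG was 5.95 in HCC827, 3.64 in H358, 2.20 in PC9, 1.78 in H23 and 1.24 in A549. Between IkB_SR and MiG it lay at -0.95 ± 0.29 (95% interval -1.56 to -0.33, adjusted p = 0.996, unadjusted p = 0.00507, lower in 4 of 5 lines). The ratio of IkB_SR to MiG was 0.398 on the array labelled H23 IkB_SR, 0.420 in HCC827 and 0.479 in PC9, and 1.15 in H358. In A549 the IkB_SR signal was dim, so its ratio of 0.200 is not a measured size. Of all 15185 genes limma called 0 (0%) between IKKb and MiG, with 839 (5.53%) at an unadjusted p below 0.05, and 0 (0%) between IkB_SR and MiG, with 662 (4.36%). These comparisons share the MiG arrays.

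The 3 ICAM1 probe sets ran the same way. Between IKKb and IkB_SR the brightest lay at log2 2.26, the second at 1.99 ± 0.28 (limma adjusted p = 0.00498 over 29625 probe sets) and the dimmest at 1.08 ± 0.31 (adjusted p = 0.150), and each was higher in 5 of 5 lines. The vectors held 24.1% of the variance of the ICAM1 log2 signals over the 15 arrays and the lines 71.0%. In no other tested member did the vectors hold more than 3.80%. The share was 23.2% for VCAM1 and 9.91% for ICAM4, which were dim on most arrays and not tested.

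ICAM2, the next of the family, had its highest signals with IKKb in 4 of 5 lines, but its difference did not pass. In H358 the ICAM2 signal was 1329 with IKKb, 483 with IkB_SR and 671 with MiG. In HCC827 it was 518 with IKKb, 284 with IkB_SR and 267 with MiG. In PC9 it was 209 with IKKb, 158 with IkB_SR and 217 with MiG. PC9 was the line where IKKb did not exceed MiG. In H23 it was 29.4 with IKKb, 7.64 on the array labelled IkB_SR and 13.5 with MiG, all 3 dim, and in A549 42.4 with IKKb against dim values of 28.4 with IkB_SR and 10.7 with MiG. The log2 fold change was 0.80 ± 0.21 between IKKb and IkB_SR (95% interval 0.35 to 1.24, limma adjusted p = 0.0940, higher in 5 of 5 lines), 0.72 ± 0.21 between IKKb and MiG (adjusted p = 0.878, 4 of 5 lines) and -0.08 ± 0.21 between IkB_SR and MiG (adjusted p = 0.996). Without the H358 IKKb array the difference between IKKb and IkB_SR was 0.68 (adjusted p = 0.218). Its second probe set lay at 0.24 ± 0.26 (adjusted p = 0.754, higher in 3 of 5 lines). The 2 ICAM2 probe sets therefore differed in the size of the change, and the larger value came from the brighter.

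ICAM3 and ICAM4 lie near ICAM1 on chromosome 19, in the order ICAM1, ICAM4, ICAM5 and ICAM3 in the RefSeq annotation, with other genes between ICAM5 and ICAM3. ICAM3 signals ran from 385 to 1317 with IKKb, from 369 to 1359 with IkB_SR and from 272 to 1307 with MiG, and lay above the 40th percentile on all 15 arrays. They followed the line and not the vector. The 3 arrays of PC9 were the highest, followed by H23, HCC827, H358 and A549, with no overlap between neighbouring lines, and the lines held 97.4% of the variance. The ICAM3 log2 fold change was 0.07 ± 0.10 between IKKb and IkB_SR (95% interval -0.14 to 0.29, adjusted p = 0.805), 0.13 ± 0.10 between IKKb and MiG and 0.06 ± 0.10 between IkB_SR and MiG. An ICAM3 change of the size seen for ICAM1 lies outside that interval. ICAM4 was dim on 11 of 15 arrays. In H23 it had a signal of 87.6 with IKKb, 149 on the array labelled IkB_SR and 92.4 with MiG, and in PC9 34.8 with IKKb. The other ICAM4 values ran from 2.82 to 36.7, so it did not pass the filter on dim genes and has no test in the main fit. With no filter it lay at 0.53 ± 0.27 between IKKb and IkB_SR (adjusted p = 0.442). Of 9 tested neighbours of ICAM1 on the chromosome, 0 passed in limma between IKKb and IkB_SR, against 0.922% of all genes. At an unadjusted p below 0.05 lay 0 of the 9, against 14.2% of all genes. Their median was 0.13, against -0.01 over all genes.

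VCAM1 was above the 40th percentile on 1 of 15 human arrays. In H358 its signal was 593 with IKKb, against 9.90 with IkB_SR and 19.9 with MiG. The other 4 lines ran from 12.2 to 40.1 with IKKb, from 10.1 to 25.0 with IkB_SR and from 2.71 to 28.6 with MiG, all dim. Only the H358 IKKb value stood clear of the others. Taking the 40th percentile for the dim arrays, VCAM1 in H358 was at least 15.3-fold higher with IKKb than with IkB_SR and at least 15.5-fold higher than with MiG. This is 1 array with no replicate, the one whose spike-in and actin signals stood apart, and their part in the value was not tested. The endothelial markers PECAM1 and CDH5 were not higher there, while the other listed ones enter only the sum below. PECAM1 read 112 with IKKb against 231 with IkB_SR and 224 with MiG. CDH5 read 4.86 against 28.2 and 49.0, its IKKb and IkB_SR values being dim. The 11 fibroblast and endothelial markers summed to 3210.2 with IKKb, 3609 with IkB_SR and 3387 with MiG in H358, with 5, 5 and 7 of them above the 40th percentile. With no filter on dim genes VCAM1 lay at log2 1.11 ± 0.54 between IKKb and IkB_SR (limma adjusted p = 0.430) and 1.15 ± 0.54 between IKKb and MiG (adjusted p = 0.888).

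**Figure D2:**
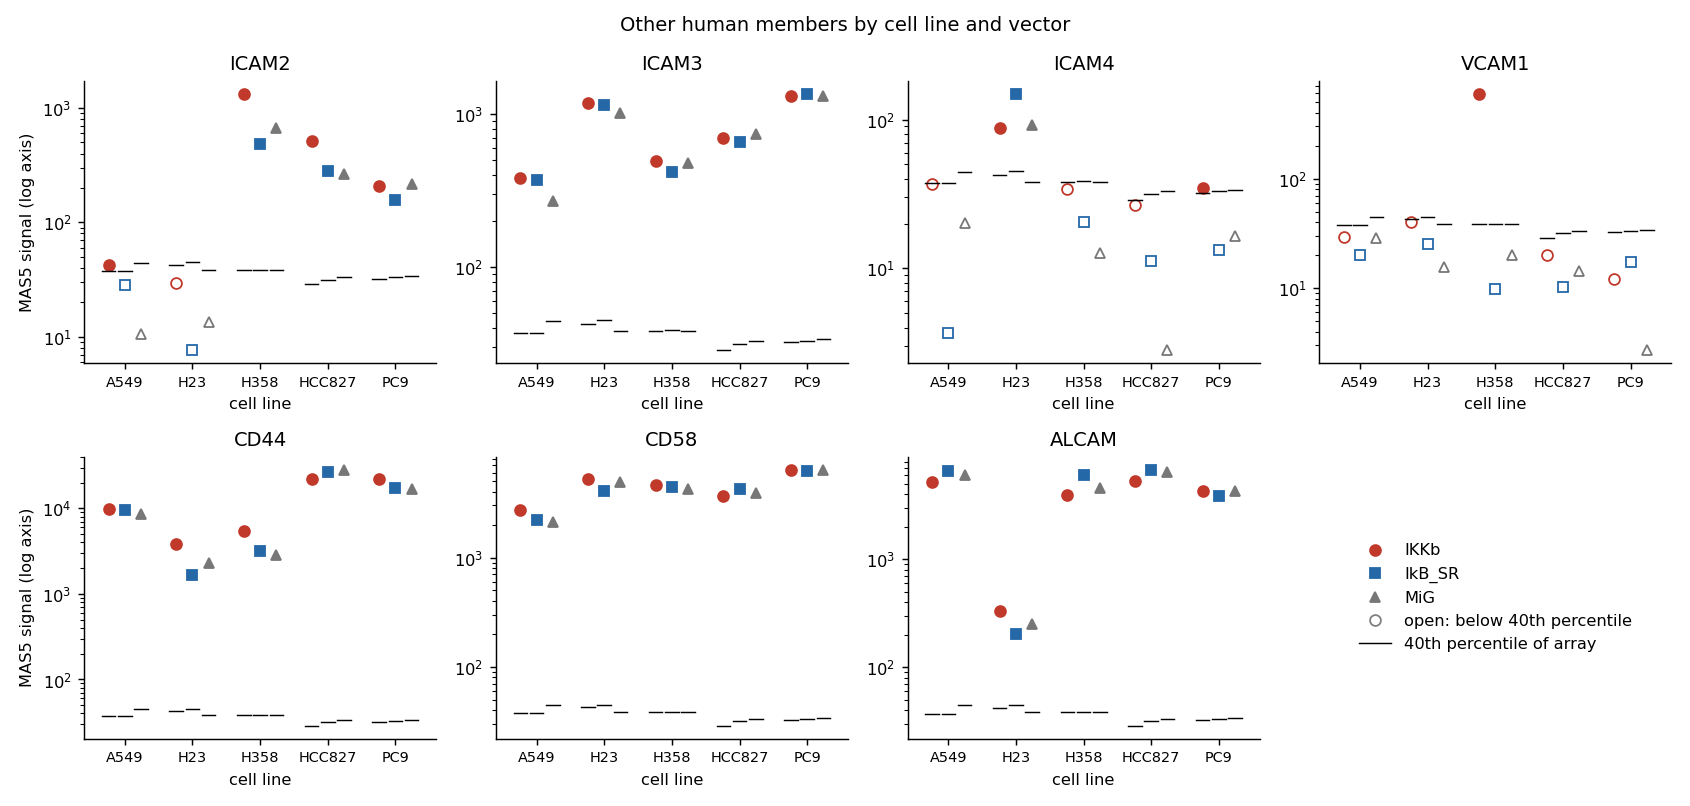
Signals (log axis) of the other 7 measured human members by line, with 1 point per array for IKKb, IkB_SR and MiG, dim values open and the 40th percentile of each array as a black line. VCAM1 has 1 filled point, H358 with IKKb at 593, and the ALCAM points of H23 lie at 204 to 329 below those of the other lines.

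CD44, the hyaluronan receptor, was bright on all 15 human arrays and did not pass the threshold in any comparison. In H23 the CD44 signal was 3819.65 with IKKb, 1655 on the array labelled IkB_SR and 2304 with MiG. In H358 it was 5369 with IKKb, 3154 with IkB_SR and 2823 with MiG. In PC9 it was 21972 with IKKb, 17338 with IkB_SR and 17011 with MiG. In these lines, and in A549, IKKb was the highest. In A549 it was 9936 with IKKb, 9494 with IkB_SR and 8549 with MiG, and in HCC827 21836 with IKKb, 26745 with IkB_SR and 28449 with MiG. HCC827, the line with the largest ICAM1 difference, was thus the line in which CD44 was lower with IKKb than with either of the others. The log2 fold change was 0.42 ± 0.17 between IKKb and IkB_SR (95% interval 0.05 to 0.78, limma adjusted p = 0.285, 4 of 5 lines), 0.37 ± 0.17 between IKKb and MiG (adjusted p = 0.878) and -0.05 ± 0.17 between IkB_SR and MiG. Of 13 CD44 probe sets 12 were tested, and they ran from -0.20 to 0.42 between IKKb and IkB_SR with 0 past the threshold and 1, the brightest, at an unadjusted p below 0.05. Of 6 splicing factors listed for the CD44 variant exons and 13 genes of its ligands, hyaluronan turnover and shedding, 0 passed in limma in any human comparison, with 0 of the splicing factors and 2 of the 13 at an unadjusted p below 0.05 between IKKb and IkB_SR, where 14.2% of all genes lay there.

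Between lines CD44 varied far more than between vectors, and its probe sets did so to different degrees. The lines held 94.8% of the variance and the vectors 1.93%. The brightest probe set had a median signal of 26745 in HCC827, 17338 in PC9, 9494 in A549, 3154 in H358 and 2304 in H23. HCC827 overlapped PC9 and H358 overlapped H23, while PC9, A549 and H358 were separate. Another CD44 probe set, of lower signal, had medians of 8630.05 in HCC827, 1533 in PC9, 204 in A549, 191 in H358 and 36.7 in H23. The order of the medians was the same by both, with a wider spread by the second. By the second, A549 (202 to 215) lay within the range of H358 (174 to 254). Its H23 median was dim, so the wider spread rests in part on a dim value. The labels do not say which splice forms each probe set reads.

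CD58, the CD2 ligand, had similar signals with all vectors. It ran from 2716 to 6302 with IKKb, from 2201 to 6260.02 with IkB_SR and from 2139.64 to 6405 with MiG. PC9 was highest and A549 lowest with each vector, and the 3 arrays of each of these lines lay apart from those of the other 3, which overlapped. The log2 fold change was 0.11 ± 0.09 between IKKb and IkB_SR (95% interval -0.08 to 0.29, limma adjusted p = 0.624), 0.09 ± 0.09 between IKKb and MiG and -0.02 ± 0.09 between IkB_SR and MiG. Its 5 probe sets ran from 0.04 to 0.16 in the comparison of IKKb with IkB_SR.

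ALCAM, the CD6 ligand, was the member with the largest share of variance between lines, 98.8%, against 0.0533% between vectors. In H23 its signal was 329 with IKKb, 204 on the array labelled IkB_SR and 251 with MiG. In the other 4 lines it ran from 3971 to 5357 with IKKb, from 3902 to 6796 with IkB_SR and from 4277 to 6515 with MiG. H23 therefore lay below every other line with every vector, while neighbours among the other 4 overlapped. The log2 fold change was -0.10 ± 0.13 between IKKb and IkB_SR (95% interval -0.38 to 0.19, limma adjusted p = 0.805), -0.06 ± 0.13 between IKKb and MiG and 0.03 ± 0.13 between IkB_SR and MiG. Per line the difference between IKKb and IkB_SR had both signs, and H23 and PC9 were the lines where ALCAM was higher with IKKb.

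**Figure D3:**
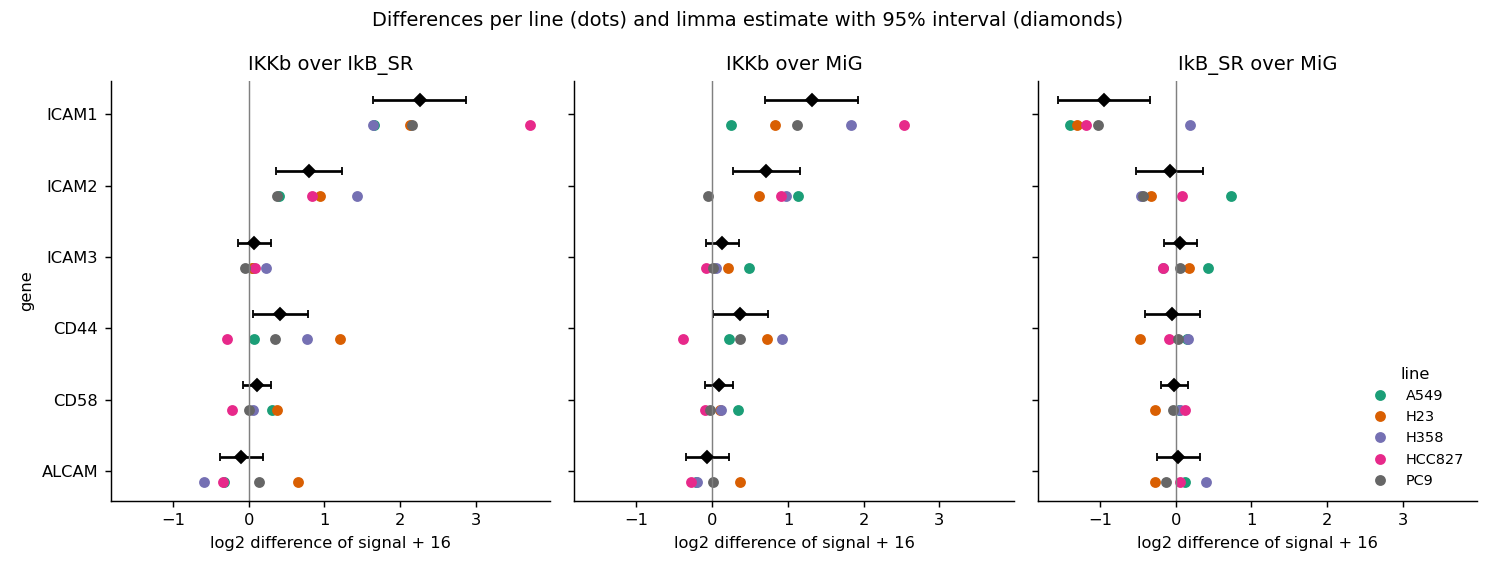
Log2 differences of signal plus 16 for the 6 tested human members in 3 comparisons, IKKb over IkB_SR, IKKb over MiG and IkB_SR over MiG. Coloured dots are single lines and black diamonds the limma estimates with their 95% intervals. ICAM1 lies at 2.26, 1.31 and -0.95, and ICAM3, CD58 and ALCAM lie between -0.10 and 0.13.

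Of the 6 members tested, 1 passed between IKKb and IkB_SR, which is ICAM1, against 140 of all genes (0.922%). At an unadjusted limma p below 0.05 lay 3 (ICAM1, ICAM2 and CD44), against 2159 of all genes (14.2%). In all 5 lines 2 members, ICAM1 and ICAM2, were higher with IKKb, as 686 of all genes (4.52%) were. None of the 6 was lower in all 5 lines, as 874 genes (5.76%) were. The median log2 fold change of the 6 was 0.26, against -0.01 over all genes. Between IKKb and MiG, 0 of 6 passed in limma, as 0 of all genes did, and the median was 0.25. Of the 6, 3 (ICAM1, ICAM2 and CD44) lay at an unadjusted p below 0.05, against 839 of all genes (5.53%). Here 1 of the 6 (ICAM1) was higher in all 5 lines, against 504 of all genes (3.32%), and 0 lower, against 734 (4.83%). Between IkB_SR and MiG, 0 of 6 passed, as 0 of all genes did, and the median was -0.03. Of the 6, 1 (ICAM1) lay at an unadjusted p below 0.05, against 662 of all genes (4.36%). In that comparison 0 of 6 were higher in all 5 lines, against 613 of all genes (4.04%), and 0 lower, against 561 (3.69%).

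**Figure D4:**
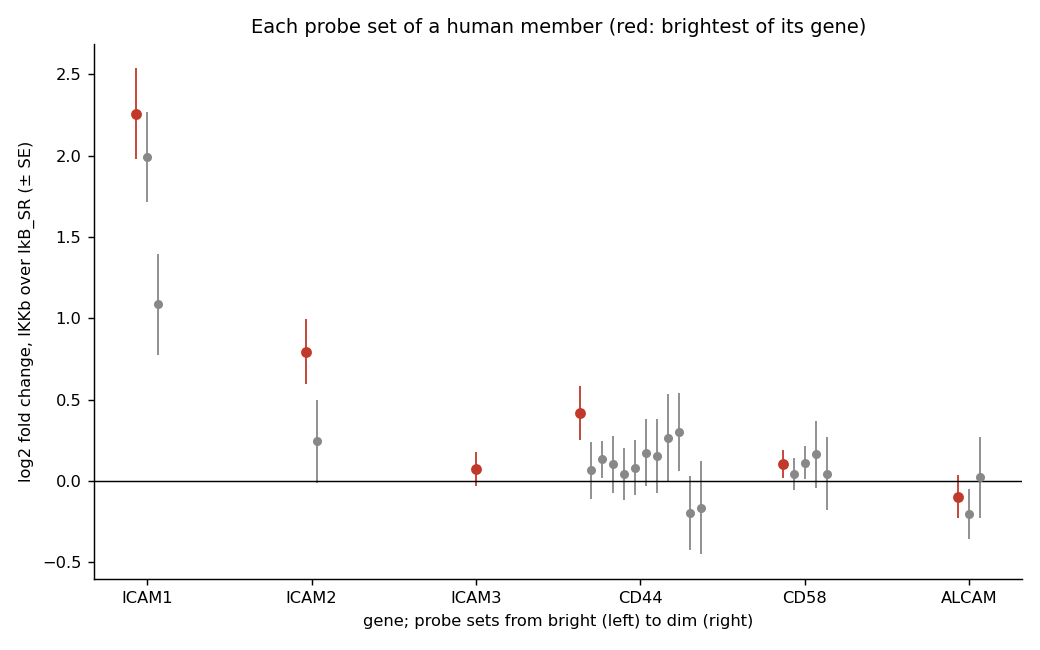
Log2 fold change between IKKb and IkB_SR (± SE of the limma fit) for each tested probe set of the 6 tested human members, from bright to dim within a gene, with the brightest in red. The 3 ICAM1 probe sets lie at 2.26, 1.99 and 1.08, and the 12 CD44 probe sets between -0.20 and 0.42.

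Across the 15 arrays, with the mean of its line taken from each log2 signal, ICAM1 was most like NFKBIE (Pearson r = 0.969), TNIP1 (0.963), BIRC2 (0.962), IRF1 (0.959) and NFKB2 (0.953) among 15184 other genes. The arrays share 5 lines and 3 vectors, so these are descriptions of a common pattern over few conditions. By the same measure the r with ICAM1 was 0.68 for ICAM2, 0.42 for CD44, 0.18 for CD58, 0.05 for ICAM3 and -0.18 for ALCAM. All 5 of the most similar genes passed between IKKb and IkB_SR, from BIRC2 at log2 0.66 ± 0.10 (limma adjusted p = 0.00683) to NFKB2 at 1.70 ± 0.21 (adjusted p = 0.00161). They were picked for following ICAM1 on the same arrays, so their passing is not a separate result.

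The genes that act with these ligands were examined as lists. Of 8 tested integrins and other counter-receptors, which leukocytes normally carry, 1 passed between IKKb and IkB_SR. This was ITGAM, the alpha chain of the ICAM1 receptor Mac-1, at log2 1.72 ± 0.34 (limma adjusted p = 0.0326, higher in 5 of 5 lines). Against MiG, ITGAM lay at 0.21 ± 0.34 with IKKb (limma adjusted p = 0.960) and at -1.51 ± 0.34 with IkB_SR (adjusted p = 0.725). Most of the difference thus lay between IkB_SR and MiG. The ITGAM signal with IKKb was 654 in H23, 438 in PC9, 166 in A549, 60.1 in H358 and 42.5 in HCC827, against 171, 30.9, 41.8, 28.6 and 11.95 in the same lines with IkB_SR. The IkB_SR values of PC9, H358 and HCC827 were dim, so the fold depends on the added 16. The 8 measured leukocyte markers summed to 192 to 427 with IKKb, 269 to 624 with IkB_SR and 244 to 615 with MiG, and PTPRC was dim with each vector except for HCC827 with IKKb, at 28.7. Of 13 tested ligands of the B7, nectin and CD47 kinds, 1 passed, CD47, at 0.68 ± 0.11 (adjusted p = 0.0114, 5 of 5 lines). Of 11 selectins and endothelial adhesion molecules, 8 cytoskeletal linkers of ICAM and CD44 tails and 9 junction partners of F11R, 0 passed in any human comparison, with 1, 3 and 1 at an unadjusted p below 0.05 between IKKb and IkB_SR, against 14.2% of all genes. Of 4 leukocyte, 6 fibroblast and endothelial and 9 epithelial markers tested, 0 passed in any human comparison, with 1, 1 and 0 at an unadjusted p below 0.05 between IKKb and IkB_SR, against the same 14.2% of all genes. Of 7 tested genes listed as NF-kB activity controls, 5 passed between IKKb and IkB_SR, against 0.922% of all genes. These were TNFAIP3, RELB, TRAF1, NFKB2 and NFKBIE. The other tested genes on this list were NFKBIA and IKBKB, the transduced genes, and BIRC3, also listed, had no human probe set of its own. TNFAIP3 lay at 3.39 ± 0.41 and RELB at 2.16 ± 0.23, and ICAM1 at 2.26 lay between these.

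In LLC the members were measured with IKKb and MiG. Icam1 was dim on all 4 arrays, at 19.01 and 29.7 with IKKb and 14.8 and 13.7 with MiG, and did not pass the filter, so no fold is given. Icam2 was dim as well, at 4.28 and 8.88 with IKKb and 14.1 and 8.03 with MiG. Icam1 thus stayed dim with IKKb as with MiG, and the size of the human ICAM1 difference could not be compared with LLC. Vcam1 was bright in LLC, at 3301 and 3697 with IKKb and 3375 and 3499 with MiG. Cd44 had signals of 8060.17 and 9658 with IKKb and 12006 and 10110.5 with MiG, both IKKb arrays below both MiG arrays, as in 1401 of 12555 genes (11.2%). F11r, the junction protein, had signals of 155 and 113 with IKKb and 185 and 114 with MiG. Vcam1, F11r, Alcam and Icam4 overlapped between the vectors. Alcam had signals of 1720.2 and 939 with IKKb and 1662 and 1158 with MiG, and Icam4 71.1 and 64.3 with IKKb and 58.6 and 81.5 with MiG.

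**Figure D5:**
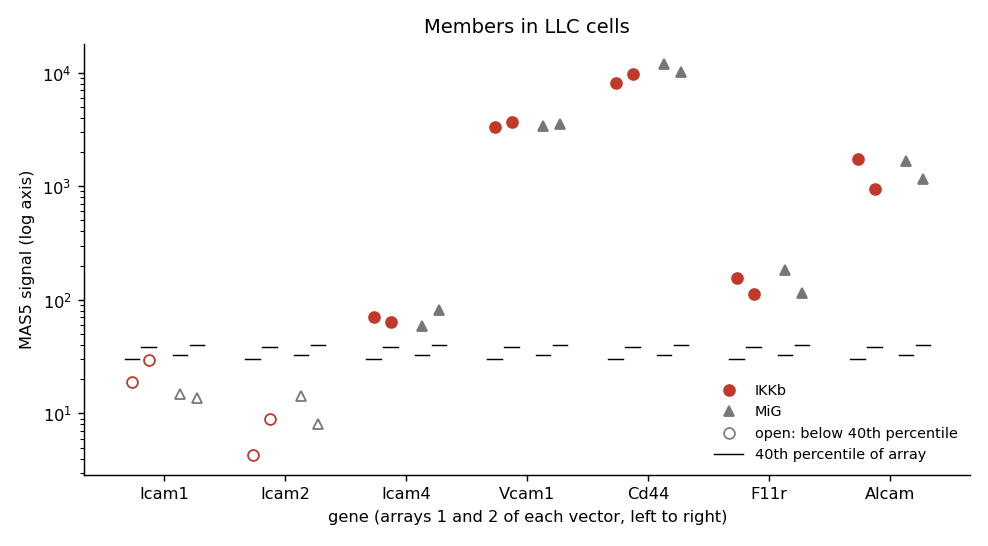
Signals (log axis) of the 7 measured members in LLC, with 1 point per array for IKKb and MiG, dim values open and the 40th percentile of each array as a black line. Icam1 and Icam2 are dim on every array, and Vcam1 lies between 3301 and 3697 with both vectors.

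Of the 5 members tested in LLC, 0 passed in limma, against 3 of 12555 genes (0.0239%), and the unadjusted p was below 0.05 for 0, against 235 genes (1.87%). The log2 fold change between IKKb and MiG was 0.02 ± 0.18 for Vcam1 (95% interval -0.40 to 0.45), -0.32 ± 0.22 for Cd44 (-0.85 to 0.21), -0.12 ± 0.34 for F11r (-0.93 to 0.68), -0.12 ± 0.32 for Alcam (-0.90 to 0.65) and -0.03 ± 0.35 for Icam4 (-0.86 to 0.80). These intervals leave room for changes of nearly 2-fold in some members. The 2 other Vcam1 probe sets and 1 of the 3 other Cd44 probe sets split by replicate number rather than vector. So did the brightest probe sets of Alcam and F11r and some dimmer ones of Alcam, with both arrays numbered 1 above both numbered 2. The brightest Vcam1 probe set ran the other way, with both arrays numbered 2 above both numbered 1. The second brightest Vcam1 probe set read 2618 with IKKb and 2623 with MiG on the arrays numbered 1, and 1136 with IKKb and 1235 with MiG on those numbered 2. The second brightest Cd44 probe set read 6617 and 8015 with IKKb and 8708 and 8207 with MiG, both IKKb arrays below both MiG arrays as for the brightest. The Dap spike-in split the arrays the same way, at 1567 with IKKb and 1679 with MiG on those numbered 1, and 19.4 with IKKb and 28.7 with MiG on those numbered 2. With the replicate number as a block 222 genes passed and 0 members did. In that fit Alcam lay at -0.12 ± 0.11 and F11r at -0.12 ± 0.25. Of the lists, the protease Mmp9, which can shed CD44, rose with IKKb (limma adjusted p = 0.0379), at 1211 and 729.7 against dim MiG values of 21.6 and 37.4, and so did Nfkbie, an inhibitor of NF-kB (log2 3.53 ± 0.29, adjusted p = 0.0379), while 0 other listed genes passed. The 10 epithelial markers summed to 9604 and 10123 with IKKb and 14731 and 12315 with MiG, with 3 and 4 against 7 and 7 of them above the 40th percentile, and their part in the values was not tested. Ptprc, Pecam1 and the fibroblast marker Col1a1 were dim on all 4 LLC arrays. Cdh5 was above the 40th percentile on 1 of 4, and Col3a1 read 9899 to 20078.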

How the data were processed

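Total RNA was measured on 15 human and 4 mouse single-colour Affymetrix arrays. Each probe set has 1 deposited linear intensity, made by the authors with GCOS 1.4 and MAS5 per the submitters' processing notes. Their trimmed mean, without the lowest and highest 2 percent, was 500 on each array. That scaling removes any difference in total RNA, and MAS5 values near background are noisy.

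Genes were taken from probe sets that name 1 gene, by the brightest, and signals as log2 of the value plus 16. Fold changes on this scale understate those of dim genes. Genes above the 40th percentile of their array on at least 5 human or 2 mouse arrays were kept, 15185 human and 12555 mouse. Two-sided tests used lmFit and a trended eBayes of limma 3.58.1 (R 4.3.3), and all genes of a comparison entered the Benjamini-Hochberg adjustment, with a threshold of 0.05. The human fit held 15 arrays and blocked on cell line. The line pairs the arrays, and deviations of same-line arrays correlated at 0.800 to 0.917. The LLC fit had no block, since the labels do not say what the replicate numbers stand for. The fits were tested on simulated data. No 2 arrays held identical values. For human comparisons, p-values weigh a difference against its spread over 5 lines with 1 array per line and vector.

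Members, lists and tests were chosen with earlier results of these data known. The lists were counter-receptors, endothelial adhesion molecules, cytoskeletal linkers, CD44 ligands and sheddases, CD44 splicing factors, other surface ligands, F11R partners, chromosomal neighbours of ICAM1, NF-kB activity controls and markers of leukocytes, of fibroblasts and endothelium and of epithelium. All members were named, with the 5 genes most like ICAM1 and up to 3 genes per list that passed. Promoter windows and gene order came from RefSeq GRCh38.p14. Other settings tried were leaving out lines or arrays, fitting the compared vectors alone, changing the block, no trend, averaging probe sets, a filter at the 60th percentile or none, median centring, quantile normalisation and pseudocounts of 1 and 64. Python 3.11.15 with matplotlib 3.10.9 drew the figures.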

Additional observations from a re-analysis of the deposited data

Results flagged for a closer look

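Of 48 groups of 5 values examined for a value far from the rest by Dixon's test, 11 held one, where chance gives about 1 in 20. The groups share arrays and lines, so 1 array or line can be counted several times and the share is no measure of an excess. For ICAM1, the log2 signal with IKKb was 6.41 in A549 and 10.70 to 11.43 in the other lines. The ICAM1 difference between IkB_SR and MiG was 0.19 in H358, the line where IkB_SR was not below MiG, and -1.40 to -1.03 in the others. The ICAM1 difference between IKKb and IkB_SR was 3.72 in HCC827 and 1.63 to 2.15 in the others.

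ICAM4 was highest in H23, with a log2 signal of 6.70 with IKKb against 5.41 to 5.72 in the other lines, and of 7.37 on the array labelled IkB_SR against 4.30 to 5.19. VCAM1 stood out in H358 with IKKb, with a log2 signal of 9.25 against 4.82 to 5.81 in the other lines. Its difference there was 4.56 between IKKb and IkB_SR, against -0.24 to 0.46, and 4.09 between IKKb and MiG, against 0.01 to 0.82. ALCAM was lowest in H23 with every vector, at a log2 signal of 8.43 with IKKb (11.96 to 12.39 in the other lines), 7.78 on the array labelled IkB_SR (11.94 to 12.73) and 8.06 with MiG (12.07 to 12.67).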

How the results depend on the processing

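ICAM1 passed between IKKb and IkB_SR under 15 of 16 alternatives, at log2 1.78 to 2.48, the lowest with the mean of the probe sets. With 1 line or the H358 IKKb array left out it ran from 1.89 to 2.41. The exception was the fit with no replicate block (cell line left out), at 2.26 with an adjusted p of 0.99996, where 0 members passed. ICAM1 passed under none of the alternatives between IKKb and MiG (1.01 to 1.58) or between IkB_SR and MiG (-1.23 to -0.74), nor did ICAM2 between IKKb and IkB_SR, whose lowest adjusted p was 0.0643 without A549. CD47 passed under 11 of 16 alternatives, ITGAM under 8, and Mmp9 and Nfkbie under 7 of 13. Values near 0 that changed sign were CD58 between IkB_SR and MiG, at 0.0033 with median centring and 0.011 with the mean of the probe sets, and with that mean also ICAM2 between IkB_SR and MiG (0.11), F11r in LLC (0.25) and Vcam1 in LLC (-0.024).

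Leaving out 1 line or array also turned the sign of values that had not passed. ALCAM ran from -0.28 to 0.028 between IKKb and IkB_SR, from -0.17 to 0.016 between IKKb and MiG and from -0.058 to 0.11 between IkB_SR and MiG. In the last comparison CD44 ran from -0.096 to 0.062, CD58 from -0.051 to 0.047, ICAM2 from -0.28 to 0.017 and ICAM3 from -0.030 to 0.12. In LLC, Alcam ran from -0.56 to 0.31, F11r from -0.44 to 0.19, Icam4 from -0.22 to 0.17 and Vcam1 from -0.058 to 0.10. Over all genes the 140 calls between IKKb and IkB_SR became 86 with no filter, 44 with the mean of the probe sets, 21 without a trend, 15 with the compared vectors only and 0 with no replicate block, and 24 (without PC9) to 128 (without A549) with a line left out, 65 without H23 and 31 without HCC827. Median centring gave 101 higher and 31 lower, against 91 and 49. Calls between IKKb and MiG went to 1 with the mean of the probe sets, and those between IkB_SR and MiG to 1 with the compared vectors only and ran from 0 to 8 (without H358) with a line left out. The 3 calls in LLC became 0 with quantile normalisation, median centring, the mean of the probe sets, no filter, the stricter filter or no trend, 222 with the replicate block, and 5 to 140 with 1 array left out, where a lone array is assumed to vary like the others. The cause of these shifts was not tested. Signals below the 40th percentile limit ICAM4 and VCAM1 in the human lines and Icam1 and Icam2 in LLC.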
